A study of Mus musculus with 4 samples.

Results

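The core circadian clock and its PAR-bZIP outputs were followed through 10 genes: Arntl, Clock, Dbp, Tef, Hlf, Per1, Per2, Per3, Nr1d1 and Bhlhe41. They were picked by symbol, with the differences between CSA and vehicle in these same arrays already known. Each of the 10 was named alone by 1 row of the deposited table, and they are 10 of 19935 genes so named. The cells were hair follicle bulge stem cells, sorted from skin for alpha6 integrin together with CD34. The donors were male CD-1 mice aged 56 days after birth, whose follicles were in the second telogen, when hair growth rests. One group received 100 mg/kg CSA and the other a vehicle, injected into the peritoneum over 3 days, and each group had 2 biological replicates on 1 array each. CSA is not expanded in the labels, but in calcineurin research it is short for cyclosporine A, an inhibitor of that phosphatase. The labels used here give neither the number of mice in a sample nor the hour of the day at which skin was taken.

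The circadian clock is a feedback loop of transcription factors. ARNTL (also called BMAL1) and CLOCK form a dimer that binds E-boxes and switches on the Per and Cry genes, Nr1d1, Bhlhe41 and Dbp. PER and CRY proteins then block the dimer, and NR1D1 (REV-ERB alpha) represses Arntl. DBP, TEF and HLF, the PAR-bZIP factors, bind a different site, the D-box, and pass the rhythm on to output genes. In mouse tissues with a running clock, Arntl RNA therefore peaks at about the opposite time of day from Dbp, Per3 and Nr1d1. Mouse skin keratinocytes and follicle cells hold such a clock, and loss of Arntl or Clock function in mice delays the growth phase of the hair cycle.

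The promoters of these genes were searched for the letters of sites that clock factors bind. RefSeq promoter sequences of build GRCm38.p6 were at hand for 9 of the 10 genes with 14 annotated starts, and Per2 had no entry. The 250 bases before each start were searched on both strands for the E-box CACGTG, its variant CACGTT, the D-box (TTACGTAA or TTATGTAA), the element bound by NR1D1 and related receptors (TAGGTCA or TGGGTCA) and the core of the cAMP response element (TGACG). Shown here are Arntl and Dbp, the genes with the largest differences in either direction, and the genes with an E-box or a D-box. Each sequence is the plain 5′ to 3′ run before the start of lowest coordinate, with E-box and D-box letters in capitals.
Arntl (chr7:113207215-113207464, plus strand): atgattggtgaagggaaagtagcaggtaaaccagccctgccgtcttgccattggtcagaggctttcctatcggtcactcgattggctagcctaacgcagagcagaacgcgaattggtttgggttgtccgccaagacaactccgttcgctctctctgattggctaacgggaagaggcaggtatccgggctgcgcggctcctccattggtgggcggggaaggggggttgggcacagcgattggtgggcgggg
Dbp (chr7:45704997-45705246, plus strand): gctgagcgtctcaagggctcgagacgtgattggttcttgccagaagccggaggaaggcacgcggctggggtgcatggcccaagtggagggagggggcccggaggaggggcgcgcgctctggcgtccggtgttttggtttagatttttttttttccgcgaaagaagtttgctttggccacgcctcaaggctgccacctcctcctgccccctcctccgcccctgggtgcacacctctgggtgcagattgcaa
Tef (chr15:81802423-81802672, plus strand): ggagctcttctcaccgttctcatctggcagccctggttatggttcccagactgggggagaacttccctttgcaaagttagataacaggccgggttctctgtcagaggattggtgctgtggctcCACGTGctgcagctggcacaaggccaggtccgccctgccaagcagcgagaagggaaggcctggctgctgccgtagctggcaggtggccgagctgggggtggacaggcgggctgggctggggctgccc
Per1 (chr11:69098699-69098948, plus strand): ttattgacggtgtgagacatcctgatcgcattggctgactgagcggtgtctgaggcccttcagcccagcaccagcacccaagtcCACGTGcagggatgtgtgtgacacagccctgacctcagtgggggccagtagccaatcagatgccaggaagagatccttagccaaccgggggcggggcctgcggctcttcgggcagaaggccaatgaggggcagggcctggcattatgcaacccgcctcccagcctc
Per3 (chr4:151044666-151044915, minus strand): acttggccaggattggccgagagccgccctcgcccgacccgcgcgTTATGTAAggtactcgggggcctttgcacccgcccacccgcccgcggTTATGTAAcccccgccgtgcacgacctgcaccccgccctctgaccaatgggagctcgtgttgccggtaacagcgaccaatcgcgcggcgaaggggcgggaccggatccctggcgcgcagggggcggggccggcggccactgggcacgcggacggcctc
Bhlhe41 (chr6:145865421-145865670, minus strand): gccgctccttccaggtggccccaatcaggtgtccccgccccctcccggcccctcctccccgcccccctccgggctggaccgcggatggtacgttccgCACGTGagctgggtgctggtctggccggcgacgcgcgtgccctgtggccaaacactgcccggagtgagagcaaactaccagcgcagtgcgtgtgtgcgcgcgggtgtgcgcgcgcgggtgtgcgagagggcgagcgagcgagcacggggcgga

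Per3 held the D-box TTATGTAA at 2 places, 205 to 198 and 158 to 151 bases before its start, whereas 0.931% of all 32851 promoters held any D-box. Tef held an E-box before both of its starts. Bhlhe41 held 1 E-box before its start, and Per1 held 1 before the first of its 2 starts, against 6.02% of all promoters. Nr1d1 held the E-box variant on the minus strand, 28 to 23 bases before its start (3.85% of all promoters). Neither searched spelling of the receptor element was in any of the 14 windows (5.38% of all promoters). Other spellings, and bases outside the windows, were not searched, so a gene may hold such an element there. The core TGACG was in windows of Hlf and Per1 (17.8%). In Hlf it lay on both strands, 9 to 5 and 6 to 2 bases before the start. These matches overlap and together read TGACGTCA. The share of promoters with that longer run was not counted. No window held both a D-box and an E-box. A match describes the letters only and is not a measured binding site.

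**Figure D1:**
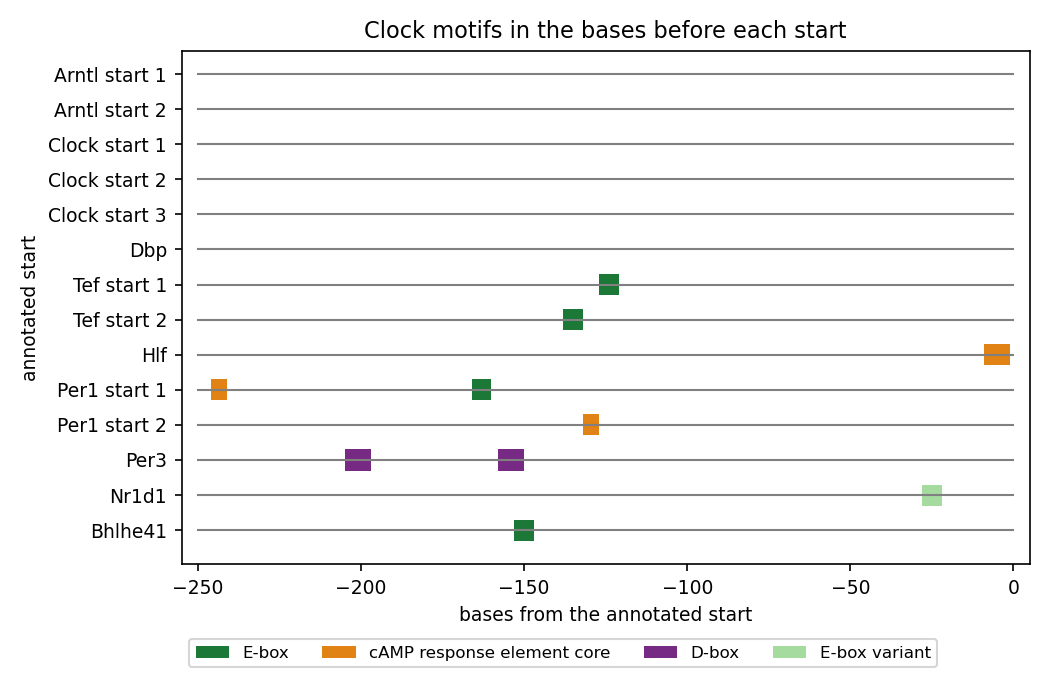
Positions of the motifs in the 250 bases before each of 14 annotated starts of 9 genes, with the distance from the start in bases on the x axis and 1 line per start. Coloured bars are matches to the E-box, its variant, the D-box and the cAMP response element core. Per3 is the gene with D-boxes, and the E-boxes lie before Tef, Per1 and Bhlhe41.

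The values are on a log scale taken as log2 and are relative to a baseline per row, set by the authors, that is not stated. Such a value holds no information on abundance, so it can be compared between arrays but not between genes. The medians of the arrays over 28815 rows lay between -0.02 and 0.06. Precision is limited by having so few arrays. With 2 arrays against 2 an exact two-sided permutation test cannot give a p below 0.333. Over the 21780 rows that name 1 gene, limma called 0 (0% of rows) at an adjusted p under 0.05, with a smallest adjusted p of 0.999. At an unadjusted p under 0.05 limma gave 646 rows (2.97%), and an ordinary test without moderation gave 599 rows and 0 after adjustment. No gene named here passed the test, and the differences of the 10 genes are given as a description without p-values. In sorted cells measured in bulk, fewer cells of a type and less RNA per cell cannot be told apart.

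The clock genes showed different patterns. Arntl was higher on both CSA arrays than on both vehicle arrays. Dbp, Hlf, Per3, Bhlhe41 and Tef were lower on both. Per1, Per2 and Nr1d1 lay above both vehicle arrays in CSA replicate 1 and below both in CSA replicate 2. The groups did not overlap for 7 of the 10 genes, against 26.5% of all rows. Of these, 2 were higher in CSA, against 11.3% of all rows, and 5 were lower, against 15.2%. By sign alone 4 were higher and 6 lower, against 42% and 58% of all rows. Counting those without overlap that also stood 1.5-fold apart (0.585 on the log2 scale) left 6 of 10 (6.28% of all rows). These were 1 higher, Arntl (4.16%), and 5 lower (2.11%). Tef was just inside that bound and Clock outside it. Since this contrast was used to pick the genes, the counts describe them and test nothing. The median difference over the 10 was -0.37, against -0.04 over all rows. It was 0.00535 without CSA replicate 2 and -0.64 without CSA replicate 1.

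**Figure D2:**
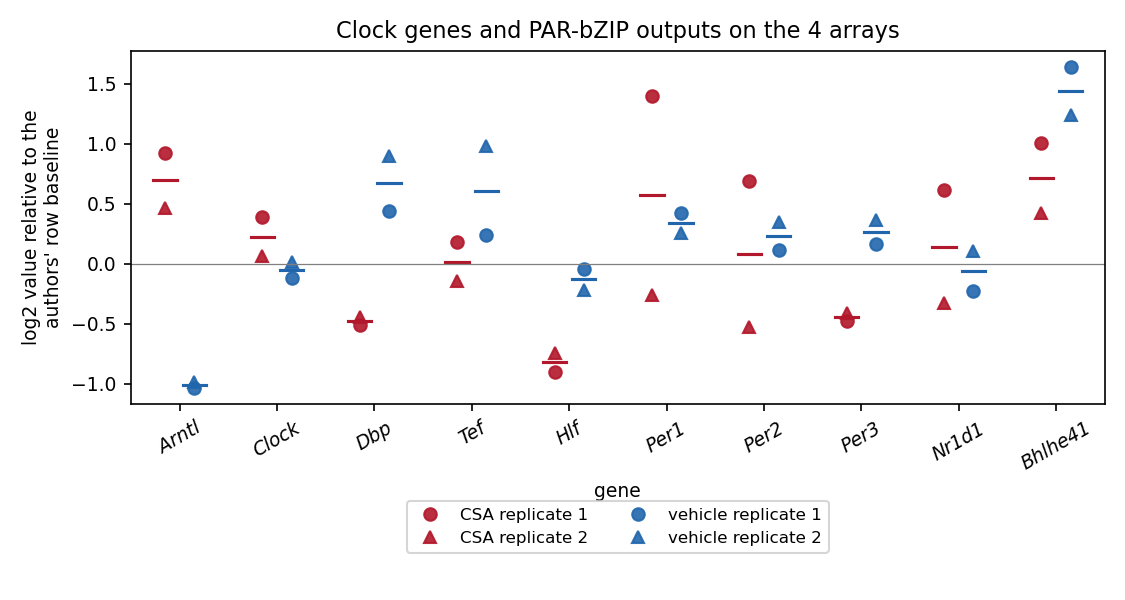
Log2 value relative to the authors' row baseline (y axis) of the 10 genes (x axis) on each array, CSA in red and vehicle in blue, circles for replicate 1 and triangles for replicate 2. Short lines are the means of 2 arrays. Both CSA arrays of Arntl stand above both vehicle arrays, those of Dbp, Hlf and Per3 stand below with little spread, and the CSA arrays of Per1, Per2 and Nr1d1 lie on either side of vehicle.

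Arntl, the bHLH-PAS factor at the head of the positive arm, had values of 0.92 and 0.47 on the CSA arrays, against -1.04 and -0.99 on the vehicle arrays. The vehicle arrays agreed to 0.05, and the gap from the lower CSA array to the higher vehicle array was 1.45. The difference of the means was 1.71 ± 0.22 (± gives the moderated standard error from limma throughout, with n = 2 arrays per group), which is 3.26-fold if the base is 2. By size it was the 36th highest of the 21780 rows. Leaving out any 1 array kept it between 1.48 and 1.93. Clock, which encodes the partner of ARNTL, had 0.39 and 0.07 in CSA and -0.12 and 0.01 in vehicle. Its groups did not overlap, but the gap was only 0.05 and the difference 0.28 ± 0.19, and it was 0.12 without CSA replicate 1. That difference of Clock is smaller than the 0.32 between its own CSA arrays, while that of Arntl exceeds the spread within either group.

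Among the PAR-bZIP outputs, Dbp had -0.51 and -0.44 in CSA, against 0.44 and 0.90 in vehicle. The CSA arrays differed by 0.07 and the gap between the groups was 0.89. Its difference of -1.15 ± 0.22, or 2.22-fold, was the 126th lowest of all rows, and it lay between -1.38 and -0.92 whichever array was left out. Hlf, the family member known from leukaemic fusions in humans, had -0.90 and -0.74 in CSA and -0.04 and -0.22 in vehicle. The groups were 0.52 apart at their nearest, and the difference was -0.69 ± 0.17 (between -0.78 and -0.60 without any 1 array). Tef, first described as thyrotroph embryonic factor, had 0.18 and -0.14 in CSA and 0.24 and 0.98 in vehicle. CSA replicate 1 and vehicle replicate 1 were 0.06 apart, and its difference was -0.59 ± 0.32. Leaving out vehicle replicate 2 gave -0.22 and leaving out vehicle replicate 1 gave -0.96, while after quantile normalization its groups overlapped. All 3 PAR-bZIP genes were lower in CSA, Dbp and Hlf by more than the spread within either group.

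The period genes did not share a pattern. Per3, the member whose loss disturbs the mouse clock least and the one with D-boxes before its start, had -0.48 and -0.41 in CSA and 0.16 and 0.36 in vehicle. The CSA arrays differed by 0.07 and the nearest arrays of the groups by 0.57. The difference was -0.70 ± 0.17, and between -0.81 and -0.60 without any 1 array. In its values Per3 resembled Dbp and Hlf more than the other period genes.

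Per1, which is also induced rapidly by light, cAMP and glucocorticoids in mouse tissues, had 1.40 and -0.26 in CSA and 0.42 and 0.26 in vehicle. The CSA arrays differed by 1.66 and the vehicle arrays by 0.16. The difference of the means, 0.23 ± 0.60, was -0.60 without CSA replicate 1 and 1.06 without CSA replicate 2. Per2, a repressor that pairs with the cryptochromes, had 0.69 and -0.53 in CSA and 0.12 and 0.35 in vehicle. Its difference was -0.15 ± 0.46, and it was -0.76 without CSA replicate 1 and 0.46 without CSA replicate 2. In both genes the vehicle arrays lay between the CSA arrays.

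Nr1d1, the orphan receptor that represses Arntl, followed Per1 and Per2. It had 0.61 and -0.33 in CSA and -0.23 and 0.10 in vehicle. The difference was 0.20 ± 0.38, with -0.27 without CSA replicate 1 and 0.67 without CSA replicate 2. In CSA replicate 1 both Nr1d1 and Arntl were above both vehicle arrays, whereas in CSA replicate 2 Arntl was above and Nr1d1 below them. Bhlhe41 (DEC2), a bHLH repressor that competes for E-boxes, had 1.01 and 0.42 in CSA and 1.64 and 1.24 in vehicle. It stood above its baseline on all 4 arrays and was lower in CSA by -0.72 ± 0.29, although its CSA arrays differed by 0.59 and the nearest arrays of the groups by only 0.23. Without CSA replicate 2 the difference was -0.43, and without CSA replicate 1 it was -1.02.

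Set against each other, CSA replicate 1 was higher than CSA replicate 2 in 7 of the 10 genes, against 56.3% of all rows. It was past 1.5-fold in 4, Per1, Per2, Nr1d1 and Bhlhe41, all higher in CSA replicate 1. Over all rows 19.5% were past 1.5-fold, 6.74% in that direction and 12.8% in the other. Bhlhe41 was just inside the bound, and with the arrays centred on their medians 3 genes were past it. Arntl, at 0.46, was the nearest outside. Dbp, Per3 and Hlf differed by -0.07, -0.07 and -0.16 between the CSA arrays, and by 0.14, 0.11 and 0.25 after quantile normalization. Between the vehicle arrays 1 of the 10, Tef at -0.74, was past 1.5-fold, against 19.4% of all rows. Each of these differences compares single arrays and has no replicate check. Per1, Per2 and Nr1d1 were the 3 of 10 genes with CSA replicate 1 above and CSA replicate 2 below both vehicle arrays, an order that 7.51% of all rows had. In CSA replicate 2 alone, 8 of the 10 genes lay below both vehicle arrays, against 38.8% of all rows, and only Arntl and Clock lay above.

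**Figure D3:**
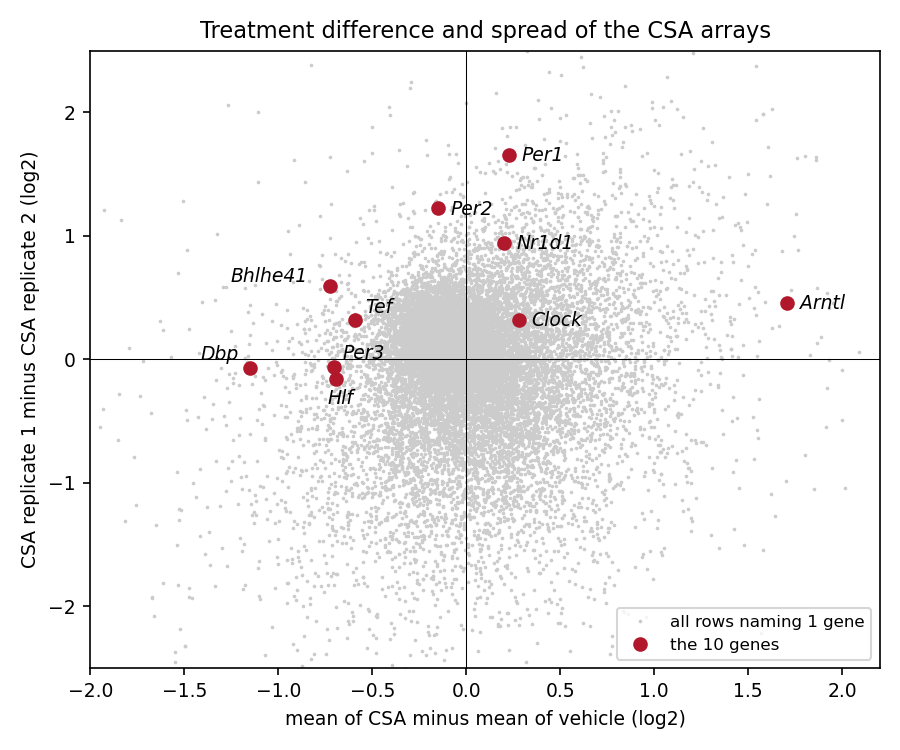
Difference of the CSA mean from the vehicle mean (x axis, log2) and CSA replicate 1 minus CSA replicate 2 (y axis, log2) for the 10 genes in red and all rows that name 1 gene in grey. Rows beyond the axes are not drawn. Dbp, Hlf and Per3 lie left of the centre with the CSA arrays nearly equal, Arntl lies far to the right, and Per1, Per2 and Nr1d1 lie near the middle of the x axis with the CSA arrays 0.94 to 1.66 apart.

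The other core clock genes came from a textbook list of 12, of which 10 were measured. limma called 0 of them over all rows (0 at an unadjusted p under 0.05). Their median difference was 0.15, with 6 higher and 4 lower in CSA. Of the 10, 1 had groups that did not overlap, against 26.5% of all rows (11.3% higher in CSA). That one was Nfil3, the bZIP repressor that competes with the PAR-bZIP factors for D-boxes. It had 2.19 and 0.71 in CSA and -0.80 and 0.47 in vehicle, a difference of 1.62 ± 0.70 (limma adjusted p = 0.999). Nfil3 was thus higher on the arrays where Dbp, Hlf and Per3 were lower, though the gap between its nearest arrays was small beside their spread.

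Several paralogues and partners of the 10 genes also differed between the CSA arrays. Bhlhe40 (DEC1), the paralogue of Bhlhe41, had 0.35 and -1.74 in CSA and -1.80 and -1.57 in vehicle (difference 0.99 ± 0.75), so that CSA replicate 1 alone stood apart. Cry2, whose protein blocks the ARNTL dimer, had 1.52 and 0.06 in CSA and -0.06 and 0.50 in vehicle (0.57 ± 0.57). Cry1, the other cryptochrome, had 0.45 and -0.32 in CSA and -0.08 and 0.05 in vehicle (0.09 ± 0.31), with the vehicle arrays between the CSA arrays as for Per1 and Per2. Nr1d2, the paralogue of Nr1d1, had 0.07 and -0.54 in CSA and 0.02 and 0.25 in vehicle (-0.37 ± 0.27). Arntl2, the paralogue of Arntl, was not higher in CSA, with -0.35 and 0.16 against -0.05 and 0.36 in vehicle (-0.25 ± 0.28). Timeless, which in mammals acts mainly at replication forks, differed by -0.38 ± 0.32. Npas2, the paralogue of Clock, was not analysed here. In 6 of the 10 measured genes of this list CSA replicate 1 was past 1.5-fold above CSA replicate 2 (6.74% of all rows), and in 0 below (12.8%).

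Kinases, ubiquitin ligases and cofactors that act on clock proteins went both ways. Of 24 listed genes 21 were measured, 12 higher and 9 lower in CSA, with a median of 0.05. limma called 0 of them and had 1 at an unadjusted p under 0.05. That was Prkaa2, a catalytic subunit of the kinase AMPK, which marks cryptochromes for breakdown. It had 0.02 and -0.02 in CSA and -0.36 and -0.63 in vehicle (0.50 ± 0.18, limma adjusted p = 0.999). Hdac3, the deacetylase that NR1D1 brings to Arntl, had -0.60 and -0.10 in CSA and 0.69 and 0.07 in vehicle (-0.73 ± 0.32). Csnk1e, a kinase of the period proteins, differed by 0.53 ± 0.30 and the deacetylase gene Sirt1 by 1.21 ± 0.74. Sirt1 had 1.44 and 0.00 in CSA and -1.22 and 0.25 in vehicle. The acetyltransferase gene Kat2b differed by -0.44 ± 0.28 and the casein kinase 2 gene Csnk2a1 by -0.39 ± 0.27.

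Of 20 listed clock outputs 18 were measured. limma called 0 (0 at an unadjusted p under 0.05), 11 were higher and 7 lower in CSA, and the median was 0.06. Alas1, the first enzyme of haem synthesis and a PAR-bZIP target in mouse liver, was not lower with Dbp. It had 0.14 and 0.13 in CSA and -0.27 and -0.07 in vehicle (0.30 ± 0.17). Nampt, the enzyme of NAD salvage, differed by 0.89 ± 0.56 but had -1.25 and 0.20 on the vehicle arrays. Klf10 differed by 0.62 ± 0.35, the metallothionein gene Mt1 by 0.82 ± 0.52, the glycerol channel gene Aqp3 by -0.74 ± 0.50 and Cys1 by -0.43 ± 0.30. Here too the CSA arrays differed, and in 7 of 18 outputs CSA replicate 1 was past 1.5-fold above CSA replicate 2 (6.74% of all rows). In the other direction 1, Aqp3, was past it (12.8%). Chosen after their values were seen, Klf9 had 2.33 and -0.58 in CSA against -0.02 and -0.06 in vehicle, and Wee1, the kinase that delays mitosis, had -0.03 and -1.64 against -0.39 and -0.20.

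Genes that respond rapidly to growth factors, cAMP or glucocorticoids, as Per1 does, differed along with Per1 between the CSA arrays. Of 14 such genes 12 were past 1.5-fold higher in CSA replicate 1 than in CSA replicate 2 (6.74% of all rows). In the other direction 1, Crem, was past it (12.8%). The median was 1.18, against 0.04 over all rows. Fkbp5, a glucocorticoid target that encodes a chaperone of the receptor, had 3.22 and -0.50 in CSA and -0.45 and -0.48 in vehicle. Errfi1, an inhibitor of the EGF receptor, had 2.53 and -0.83 in CSA against 0.06 and -0.40 in vehicle. Sgk1, a kinase that glucocorticoids induce, had 1.56 and 0.08 in CSA against -0.01 and 0.01 in vehicle. Sik1, a kinase that cAMP induces, had 1.01 and -0.81 in CSA against -0.83 and -0.52 in vehicle. Some of the set also differed between the vehicle arrays, where 5 of 14 were past 1.5-fold. Chosen after their values were seen, Fos, Junb and Atf3 were higher in replicate 1 of both groups, by 1.19, 1.25 and 1.04 in CSA and by 1.16, 0.75 and 0.84 in vehicle. The nuclear receptor gene Nr4a1 had -0.55 and -1.34 in CSA against -0.93 and -0.35 in vehicle, and Nr4a2 had -0.01 and -0.30 in CSA against 0.01 and 0.65 in vehicle. Over all rows limma called 0 of the 14 for CSA against vehicle (0 at an unadjusted p under 0.05). The part of this set in the values of Per1, Per2 and Nr1d1 was not tested.

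**Figure D4:**
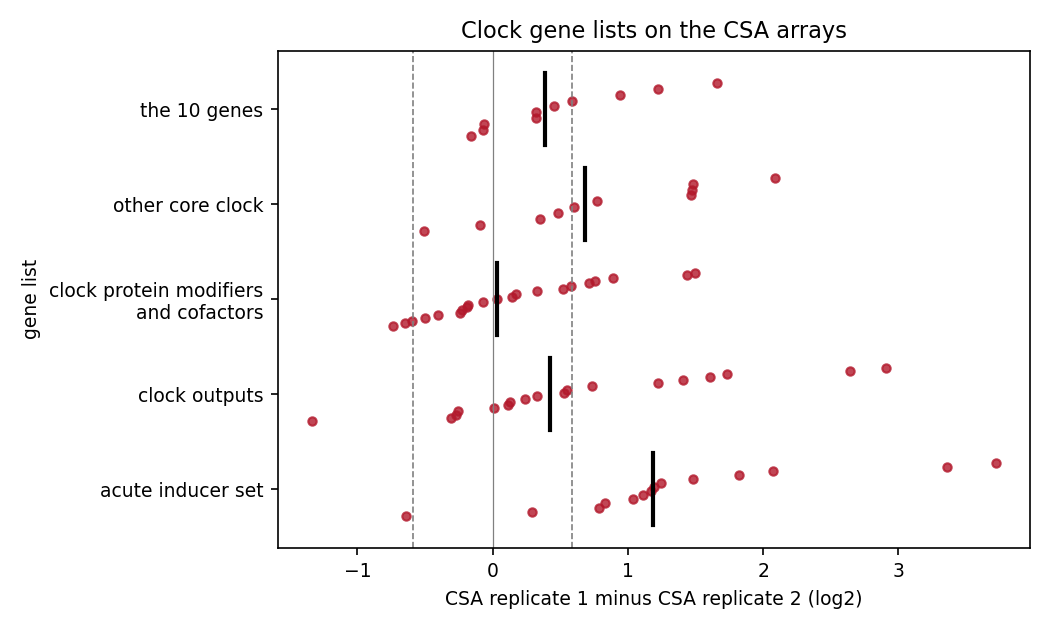
CSA replicate 1 minus CSA replicate 2 (x axis, log2) for each measured gene of 5 lists (rows). Points are genes, spread vertically for legibility, black bars are medians and dashed lines mark 1.5-fold. The acute inducer set lies mostly to the right of the dashed line with a median of 1.18, the other core clock genes have a median of 0.69 and the modifiers and cofactors one of 0.03.

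Markers of cell types also differed between the arrays. The 12 bulge markers had medians of 0.33 and 1.15 in CSA, against 0.71 and 1.26 in vehicle. CSA replicate 1 was the lowest array for 8 of them. Of the 12, 9 were lower and 3 higher in CSA, with a median difference of -0.24. The groups did not overlap for 4 of them, all lower in CSA. Cd34, used for the sort, had 1.75 and 3.60 in CSA and 4.05 and 4.25 in vehicle. Its difference of -1.47 ± 0.67 was the lowest of the 12. Itga6, which encodes the alpha6 integrin also used for the sort, differed by only -0.16 ± 0.41, and its groups overlapped. All 10 measured markers of differentiated epidermis were highest in vehicle replicate 1, with list medians of -1.03 and -0.78 in CSA and 0.43 and -0.49 in vehicle. Of the other marker lists, fibroblast and endothelial genes had medians between -0.10 and 0.27 on the 4 arrays, and basal epidermal, sebaceous, immune and melanocyte genes had medians between -0.53 and 0.29. As values are relative to a baseline, they cannot show whether a marker is absent. Leaving out CSA replicate 1 or vehicle replicate 1 cannot turn the direction of the 7 genes whose groups did not overlap. Their direction without these arrays therefore tells nothing about the markers. The part of these markers in the differences of the 10 genes was not tested.

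Genes with values most like those of Dbp and Arntl were found by Euclidean distance over the 4 arrays. Nearest to Dbp were Eml1 (distance 0.32), Tlcd4 (0.39), Mal2 (0.43), Gpr63 (0.43) and Cspp1 (0.46), with differences of CSA from vehicle between -1.26 and -0.80. Eml1, which binds microtubules, had -0.60 and -0.26 in CSA and 0.66 and 1.01 in vehicle. Nearest to Arntl were the linker histone gene H1f2 (0.46), Ykt6 (0.55), the kinase gene Wnk1 (0.57), Dennd4a (0.57) and Nt5c3 (0.60), with differences between 1.17 and 1.77. H1f2 had 0.86 and 0.30 in CSA and -1.44 and -0.85 in vehicle. With 4 arrays such likeness is a description.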

How the data were processed

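The deposited table held 28815 rows for 4 arrays, on a log scale taken here as log2, and centred per row by the authors, as the values show. Log base, baseline and normalization: not given in the sources used here. Build mm8 is from the submitters' processing notes. Per the labels' protocols, 20 ng of total RNA was amplified in 1 round and biotin-labelled. Groups came from the sample titles. The platform annotation named 1 gene for 21780 rows, several for 1605 and none for 5430. Each of the 10 genes had 1 row. In Dbp and Per1 a pair of arrays had mirrored values that summed to 0 (within 2e-06), as in 18.6% of all rows.

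limma 3.58.1 in R 4.3.3 (lmFit and eBayes without trend, two-sided, no filter, no block) was fitted to all rows that name 1 gene, with Benjamini-Hochberg adjustment. A gene with several rows was represented in lists by the row with the highest mean. As values are relative to a baseline, that row need not be the most strongly expressed. The scripts were tested on simulated arrays, in which each row had normal noise with its own observed standard deviation. That spread rests on 2 arrays per group, so the rates may differ from those of the real arrays. In each of 20 simulations of CSA against vehicle, 200 of the 21780 rows were given a change. After adjustment limma found 0% of the rows given a log2 change of 1 and 23.6% of those given 2. It found 49.3% of those given 3 and 63.1% of those given 4. These rates hold for that share of changed rows and may differ for another. Named genes were the 10, up to 6 per list by moderated t, 5 paralogues and the 5 nearest genes by distance. The genes, lists and tests were chosen with earlier results of these data known. Quantile normalization, median centring, other variance models, row rules, a filter, a replicate block and leaving out each array were tried. The series text calls the replicates biological, and p-values measure the spread between these samples.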

Additional observations from a re-analysis of the deposited data

How the results depend on the processing

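limma called 0 rows and 0 of the 63 other clock and inducer genes under every alternative run. At an unadjusted p under 0.05 the count of rows was 646, and 1020 with the replicate block, which left 0 calls and moved no difference of the 10 genes. Replicate numbers gave only 2 pairs, no label says what they mark, and the deviations of CSA and vehicle arrays of the same number had a correlation of 0.22 over rows. Of all pairs of arrays, CSA replicate 2 and vehicle replicate 2 had the highest Pearson correlation of their values, 0.52. It was 0.10 for replicate 1 of both groups, 0.06 between the CSA arrays and 0.17 between the vehicle arrays. What the replicate 2 arrays share was not tested. Leaving out 1 array gave between 475 (without vehicle replicate 1) and 1653 (without vehicle replicate 2) such rows. Leaving out 1 array moved the median difference of the 10 genes between -0.642 and 0.00535, the number higher in CSA between 2 and 5, the number lower between 5 and 8, those not overlapping and higher between 2 and 5, and those not overlapping and lower between 5 and 8. Without CSA replicate 1, 38.8% of all rows were lower without overlap, and without CSA replicate 2, 26.4% were higher, since 1 array against 2 overlaps less often. Without any 1 array the difference ranged from -0.60 to 1.06 for Per1, from -0.76 to 0.46 for Per2 and from -0.27 to 0.67 for Nr1d1, the low end of each without CSA replicate 1 and the high end without CSA replicate 2. After quantile normalization CSA replicate 1 minus CSA replicate 2 turned to 0.14 for Dbp, 0.25 for Hlf and 0.11 for Per3, and the cause was not tested. Arntl, Clock, Dbp, Tef, Hlf, Per3 and Bhlhe41 kept the direction of their difference from vehicle under every alternative run. For most alternatives this was fixed in advance. Leaving out 1 array cannot turn groups that do not overlap, and the replicate block and row rules leave the differences unchanged. Only quantile normalization and median centring could have turned them. A filter on the mean, which does not track abundance here, left 38 of the 63 genes. Without a measure of signal over background, weakly expressed genes could not be told apart from background.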
